A study of Mus musculus with 8 samples.

Results

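Interferon-stimulated and interferon-signalling genes were described as a group of 49 listed genes, of which 47 had a probe set annotated to 1 gene alone and 41 were bright enough to be tested. They were taken by symbol from 18193 genes with such a probe set, and 12982 genes were tested in all. By role, 5 of 7 listed sensors, 9 of 11 signalling factors, 24 of 28 effectors and all 3 brakes were tested. Dhx58, Oas3, Irf7, Nlrc5, Mx1 and Sp100 had a probe set but were too dim, Isg15 was read only by a probe set shared with another gene, and Ifi44 had no probe set named here.

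Interferons are secreted proteins that cells release when sensors in the cytoplasm or in endosomes meet viral nucleic acid. Type I interferon binds the receptor made of Ifnar1 and Ifnar2, and the kinases attached to it activate STAT proteins, which join Irf9 and bind a short element in the promoters of interferon-stimulated genes. The products of these genes degrade RNA, block translation or hold virus particles at the cell, and some of them switch the receptor off again. Undifferentiated ES cells are known to answer interferon weakly.

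The RNA came from CCE cells, a 129/Sv mouse embryonic stem (ES) cell line. There were 2 Affymetrix arrays each of day 10 Bmi1-labelled embryoid bodies, day 10 embryoid bodies with the empty vector, ES cells with the Bmi1 label, and control ES cells, of which 1 array was of untreated and 1 of empty vector cells. Bmi1-labelled cells had been infected with a lentivirus that holds a mouse Bmi1 cDNA, and vector cells with the same virus without it, and both kinds were sorted for eGFP. All ES cells were kept in medium with leukemia inhibitory factor, and embryoid bodies, aggregates in which ES cells differentiate, formed in bacterial dishes. The labels do not say whether replicates were separate cultures, so p-values rest on a spread among arrays that may be technical, and having 2 per group limits how precise any value is. All values are log2 values as deposited.

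Bmi1, a Polycomb repressor subunit and the gene on the virus, stood at 7.48 and 8.51 in Bmi1-labelled embryoid bodies, against 9.35 and 9.67 in vector embryoid bodies. In Bmi1-labelled ES cells it stood at 5.68 and 6.28, against 7.41 and 7.74 in control ES cells. The signal thus went against the labels at both stages, by -1.51 (SE 0.37, limma adjusted p 0.31, and 0.040 with the block on array sets) in embryoid bodies and -1.59 (SE 0.37, limma adjusted p 0.26, and 0.041 with the block) in ES cells, and these groups are called "Bmi1-labelled" throughout. These values are of the brightest probe set annotated to Bmi1 alone, and any other Bmi1 probe set was not examined. Whether the probes lie within the cDNA on the virus is not known here, and an exchange of labels, which would turn the sign of every difference between Bmi1-labelled and vector or control cells, was not tested. The value distributions of the 8 arrays fell into 3 sets, namely both replicate 1 embryoid body arrays (set 1), both replicate 2 embryoid body arrays (set 2) and the 4 ES cell arrays. Pairs of arrays within a set differed by 0.0099 to 0.0325 log2 units on average over sorted values, and pairs across sets by 0.1885 to 0.442. Pluripotency genes had a median level of 11.85 and 11.65 in Bmi1-labelled ES cells, against 12.04 and 12.18 in control ES cells, and all 10 were above the array median on each of these arrays.

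The element that interferon-activated complexes bind (the interferon-stimulated response element) was searched for in RefSeq promoters of build GRCm38.p6, from 250 bases before to 50 bases after each start, as 2 copies of GAAA with any 2 bases between them, on either strand (2 copies of TTTC on the opposite one). It was present in 17 of the 39 members with a promoter entry (43.6%), against 3.99% of 27025 genes. The longer form, with a C after the second copy, was present in 13 members (33.3%), against 0.944% of genes. Every match to the longer form is also a match to the shorter. The element that STAT dimers bind, TTCNNNGAA, reads the same on both strands, and it was present in 12 members (30.8%), against 9.55% of genes. Members were listed as interferon genes, so these shares describe the list and are not a test of it. All matches to the interferon-stimulated response element lay before the start in 14 of the 17 members that held it, and Ifih1, Eif2ak2 and Trim21 had theirs behind it. Shown here are the 160 bases that end at the start site for the 8 members that hold a whole match there and that passed the test in embryoid bodies with the array set as a block. Capitals mark the element on either strand, its 2 middle bases included, and each sequence runs 5′ to 3′ on the strand of its gene.
Ddx60 (chr8:61927927-61928086, plus strand): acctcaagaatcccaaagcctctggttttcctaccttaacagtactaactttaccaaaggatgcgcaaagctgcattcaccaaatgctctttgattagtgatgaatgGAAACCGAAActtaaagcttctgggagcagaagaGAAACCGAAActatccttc
Oas1a (chr5:120907526-120907685, minus strand): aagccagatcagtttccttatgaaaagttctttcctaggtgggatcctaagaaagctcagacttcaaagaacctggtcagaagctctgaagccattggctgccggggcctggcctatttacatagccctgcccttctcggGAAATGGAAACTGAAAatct
Gbp2 (chr3:142620503-142620662, plus strand): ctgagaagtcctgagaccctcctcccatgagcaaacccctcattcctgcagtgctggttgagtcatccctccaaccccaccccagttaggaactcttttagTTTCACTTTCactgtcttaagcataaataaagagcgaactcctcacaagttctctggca
Gbp3 (chr3:142559884-142560043, plus strand): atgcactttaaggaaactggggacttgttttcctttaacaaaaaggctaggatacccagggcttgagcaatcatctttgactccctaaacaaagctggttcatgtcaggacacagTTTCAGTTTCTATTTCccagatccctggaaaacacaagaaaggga
Ifit1 (chr19:34640729-34640888, plus strand): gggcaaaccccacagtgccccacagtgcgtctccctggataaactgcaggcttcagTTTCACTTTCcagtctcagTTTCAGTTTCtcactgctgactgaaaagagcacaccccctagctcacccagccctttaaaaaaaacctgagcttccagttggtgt
Rsad2 (chr12:26456453-26456612, minus strand): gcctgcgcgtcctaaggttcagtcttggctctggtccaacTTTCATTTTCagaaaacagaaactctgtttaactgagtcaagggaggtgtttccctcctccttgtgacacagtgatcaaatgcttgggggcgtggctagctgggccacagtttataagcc
Bst2 (chr8:71537473-71537632, minus strand): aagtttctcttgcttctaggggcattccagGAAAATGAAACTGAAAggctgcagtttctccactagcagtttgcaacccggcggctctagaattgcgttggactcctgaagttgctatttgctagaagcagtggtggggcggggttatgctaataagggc
Igtp (chr11:58199396-58199555, plus strand): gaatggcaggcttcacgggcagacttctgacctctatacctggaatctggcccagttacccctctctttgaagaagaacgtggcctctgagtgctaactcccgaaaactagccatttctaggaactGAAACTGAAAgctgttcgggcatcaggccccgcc
Ddx60 and Ifit1 each held a pair of separate copies, while in Oas1a, Gbp3 and Bst2 a pair overlapped. A match is a run of letters and was not tested as a binding site.

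**Figure D1:**
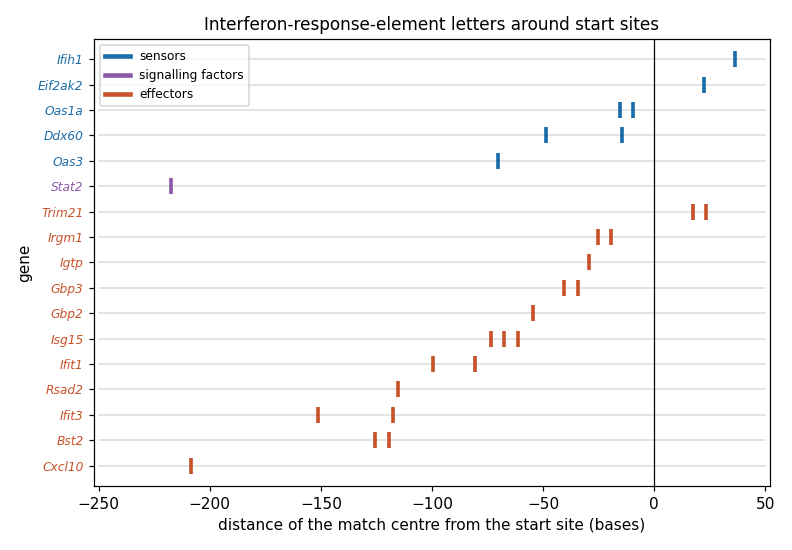
Position of each match to the element (ticks, match centre) from 250 bases before to 50 bases after the start site, in bases, for the 17 members that hold one, coloured by role. Matches lay before the start in 14 members and behind it in Ifih1, Eif2ak2 and Trim21.

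Members as a group stood near the array median in ES cells and above it in embryoid bodies. The median level over the 47 measured members was 8.55 and 8.23 in Bmi1-labelled embryoid bodies, 7.46 and 7.10 in vector embryoid bodies, 5.60 and 5.62 in Bmi1-labelled ES cells and 5.52 and 5.51 in control ES cells. The array medians over all probe sets lay between 5.57 and 5.97. In ES cells, 21 of 47 members were at or below the array median on all 4 arrays, against 33.9% of all 18193 genes.

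**Figure D2:**
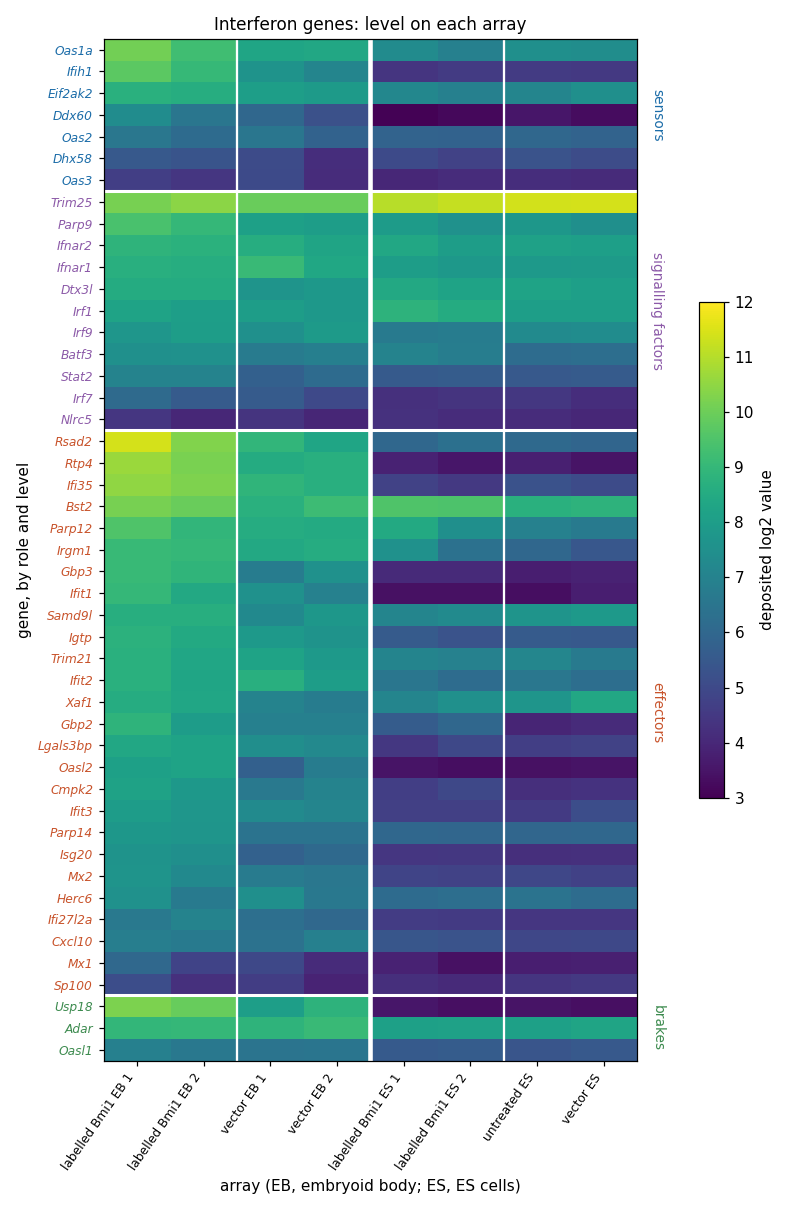
Deposited log2 value (colour) of the 47 measured members (rows, by role) on each of the 8 arrays (columns). Effectors such as Rsad2, Rtp4 and Ifi35 and the brake Usp18 are brightest in Bmi1-labelled embryoid bodies, paler in vector embryoid bodies and dark in ES cells, while Trim25 is brightest in ES cells.

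In day 10 embryoid bodies the question was whether interferon genes differ between Bmi1-labelled cells and vector cells. Most members were higher in Bmi1-labelled embryoid bodies, in both sets, and none was lower in both. The median difference over the 41 tested members was 0.88 log2 units (from -0.09 to 2.23), against -0.04 over all 12982 genes, and it was 0.94 within set 1 and 0.79 within set 2. Over 57 tested interferon genes outside the list the median was 0.06. The members were chosen with earlier results of these data known. Their shares beside those of all genes, here and below, are thus a description and not a test of the group. Arrays did not overlap, with Bmi1-labelled values higher, for 34 of 41 members (10.8% of all genes tested). Of the members, 38 were higher in both sets (25.4% of all genes) and 13 by at least 1 log2 unit in both (0.732% of all genes).

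With limma and Benjamini-Hochberg adjustment over all genes, 3 of 41 members were higher at an adjusted p under 0.05 (0.131% of all genes) and 0 were lower (0.00770% of all genes). These 3 were the effectors Isg20, Ifi35 and Parp14. At an unadjusted p under 0.05, 27 members were higher (3.61% of all genes) and 0 lower (3.45% of all genes). With the set of embryoid body arrays as a block term, 24 members were higher (1.35% of all genes) and 0 lower (0.739% of all genes): 3 of 5 sensors, 4 of 9 signalling factors, 16 of 24 effectors and 1 of 3 brakes. All arrays shared 1 spread per gene in these fits. The root mean square difference between replicates was 0.509 in Bmi1-labelled and 0.669 in vector embryoid bodies, differences between sets included. It was 0.267 in Bmi1-labelled ES cells. Between the untreated and the empty vector array of control ES cells it was 0.232. Adjusted p-values for embryoid bodies thus rest in part on the tighter ES cell arrays, with or without the block. The 4 embryoid body arrays fitted alone called 0 members with or without the block, and the fit without the block called 12 members when vector replicate 2 was left out and 0 when any other array was. With the block it called 0 without replicate 1 of either embryoid body group, 16 without replicate 2 of either, 14 without either Bmi1-labelled ES cell array and 10 without either control ES cell array. Shares over all genes are not given for fits with an array left out, here or below. Their counts show that calls hang on single arrays or sets, and not how members compare with other genes. With the block and 1 embryoid body array left out, the embryoid body difference is the one within the other set alone. The spread among arrays then comes from the ES cell arrays alone. In bulk RNA, fewer cells of a type and less RNA per cell cannot be told apart.

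**Figure D3:**
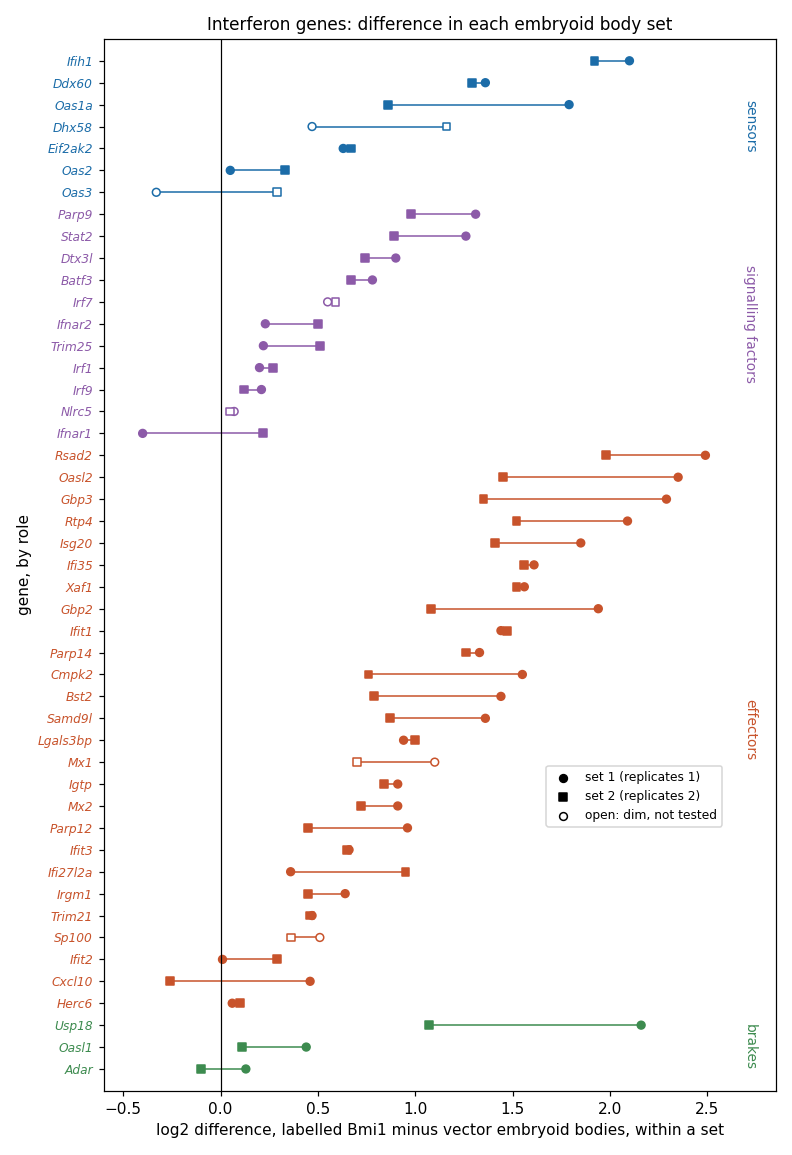
Log2 difference of each measured member between Bmi1-labelled embryoid bodies and vector embryoid bodies within set 1 (circles) and set 2 (squares), by role; open symbols mark members too dim to test. Most pairs lie right of 0, Rsad2 reaches 2.49 and 1.98, and Ifnar1, Cxcl10, Adar and the dim Oas3 cross 0.

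Sensors had a median difference of 1.32 log2 units. Ifih1, which encodes the cytoplasmic sensor of long double-stranded RNA (MDA5), stood at 9.74 and 9.02 in Bmi1-labelled embryoid bodies, against 7.64 and 7.10 in vector embryoid bodies. Every Bmi1-labelled value lay above both vector values, and the difference of 2.01 (SE 0.28) had an adjusted p of 0.076 by limma and 0.003 with the block. Ddx60, a helicase that assists RNA sensing, stood at 7.37 and 6.53 in Bmi1-labelled embryoid bodies, against 6.01 and 5.24 in vector embryoid bodies. Its arrays did not overlap, and the difference was 1.32 (SE 0.34) with an adjusted p of 0.33 by limma and 0.011 with the block. Oas1a, which makes the 2-5A messenger that activates RNase L, stood at 10.1 and 9.25 in Bmi1-labelled embryoid bodies, against 8.30 and 8.39 in vector embryoid bodies. Replicate 1 of the Bmi1-labelled group was the highest array, and the difference of 1.33 (SE 0.29) had an adjusted p of 0.24 by limma and 0.047 with the block. Eif2ak2, the kinase PKR that stops translation on double-stranded RNA, stood at 8.70 and 8.60 in Bmi1-labelled embryoid bodies, against 8.06 and 7.92 in vector embryoid bodies. The groups did not overlap, but the difference of 0.65 (SE 0.20) did not pass either limma fit (adjusted p 0.46, and 0.10 with the block). Oas2, of the same family as Oas1a, differed by 0.19, and its arrays overlapped. The dim sensor Dhx58, a regulator of RNA sensing, was higher by 0.47 and 1.16 within the sets, and the dim Oas3 differed by -0.33 and 0.29.

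Signalling factors had a median difference of 0.37 log2 units. Stat2, the partner of Irf9 in the complex that type I interferon activates, stood at 7.03 and 7.03 in Bmi1-labelled embryoid bodies, against 5.77 and 6.14 in vector embryoid bodies. Its values did not overlap, and the difference of 1.07 (SE 0.18) had an adjusted p of 0.12 by limma and 0.019 with the block. Parp9 and Dtx3l, whose proteins form a complex that supports interferon signalling, are adjacent genes. Parp9 stood at 9.41 and 9.0 in Bmi1-labelled embryoid bodies, against 8.10 and 8.02 in vector embryoid bodies (difference 1.15, SE 0.22, adjusted p 0.19 by limma and 0.035 with the block). Dtx3l stood at 8.55 and 8.53 in Bmi1-labelled embryoid bodies, against 7.65 and 7.79 in vector embryoid bodies (difference 0.82, SE 0.16, adjusted p 0.19 by limma and 0.034 with the block). For both genes all Bmi1-labelled arrays lay above all vector arrays. Batf3, a transcription factor of dendritic cells, stood at 7.51 and 7.56 in Bmi1-labelled embryoid bodies, against 6.73 and 6.90 in vector embryoid bodies, a difference of 0.72 (SE 0.17) with an adjusted p of 0.27 by limma and 0.040 with the block.

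The receptor and the other factors did not pass either fit. Ifnar1 stood at 8.69 and 8.59 in Bmi1-labelled embryoid bodies, against 9.09 and 8.37 in vector embryoid bodies, and its values overlapped. Its partner Ifnar2 differed by 0.37 (adjusted p 0.23 with the block, limma). Irf9 stood at 7.72 and 8.00 in Bmi1-labelled embryoid bodies, against 7.52 and 7.89 in vector embryoid bodies, so the groups overlapped while those of its partner Stat2 did not. Irf1, a transcription factor induced by gamma interferon, differed by 0.24, and Trim25, the ubiquitin ligase that activates RNA sensing, by 0.36. The other Trim25 probe sets differed by 0.31 and 1.09, against 0.36 for the brightest. The dim Irf7, the factor that amplifies interferon genes, was higher by 0.55 and 0.59 within the sets, and the dim Nlrc5, the activator of MHC class I genes, by 0.07 and 0.05.

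Effectors were 24 of the 41 tested members and made up most of the calls, with a median of 1.12 against 1.32 for sensors. Isg20, an RNA exonuclease, rose to 7.64 and 7.48 in Bmi1-labelled embryoid bodies, against 5.78 and 6.07 in vector embryoid bodies. The difference of 1.63 (SE 0.17) had an adjusted p of 0.038 by limma and 0.006 with the block. Ifi35, an interferon-induced leucine zipper protein, rose to 10.49 and 10.25 in Bmi1-labelled embryoid bodies, against 8.88 and 8.69 in vector embryoid bodies. For Ifi35 the difference was 1.59 (SE 0.19), with an adjusted p of 0.047 by limma and 0.0075 with the block. Parp14, an ADP-ribosyltransferase next to Dtx3l and Parp9 on chromosome 16, rose to 7.75 and 7.68 in Bmi1-labelled embryoid bodies, against 6.42 and 6.42 in vector embryoid bodies. Its difference of 1.29 (SE 0.15) had an adjusted p of 0.047 by limma and 0.0053 with the block. In all 3 genes the arrays of a group lay close together and far from the other group. Averaged over probe sets, Ifi35 differed by 1.17 and Parp14 by 0.82, and neither passed (adjusted p 0.081 and 0.18 by limma).

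Rtp4, an inhibitor of viral RNA synthesis, stood at 10.63 and 10.20 in Bmi1-labelled embryoid bodies, against 8.53 and 8.68 in vector embryoid bodies. The difference of 1.81 (SE 0.23) had an adjusted p of 0.052 by limma and 0.016 with the block, and averaged over its probe sets it was 1.05. Rsad2, which encodes viperin, had the largest difference of the group. It stood at 11.42 and 10.28 in Bmi1-labelled embryoid bodies, against 8.93 and 8.30 in vector embryoid bodies (difference 2.23, SE 0.39, adjusted p 0.14 by limma and 0.0045 with the block). Replicate 1 lay above replicate 2 in both groups on this probe set, and below it on the other Rsad2 probe sets. The groups did not overlap on any of them. Averaged over probe sets Rsad2 passed without the block (1.87, adjusted p 0.018 by limma). Its neighbour Cmpk2, a nucleotide kinase, stood at 8.19 and 7.80 in Bmi1-labelled embryoid bodies, against 6.63 and 7.04 in vector embryoid bodies, a difference of 1.16 (adjusted p 0.045 with the block, limma).

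Xaf1, a factor in cell death, stood at 8.57 and 8.31 in Bmi1-labelled embryoid bodies, against 7.01 and 6.79 in vector embryoid bodies. Its difference of 1.54 (SE 0.28) had an adjusted p of 0.16 by limma and 0.037 with the block, and averaged over its probe sets it was 0.84. Samd9l, an antiviral factor, stood at 8.63 and 8.63 in Bmi1-labelled embryoid bodies, against 7.27 and 7.76 in vector embryoid bodies (difference 1.11, SE 0.21, adjusted p 0.18 by limma and 0.032 with the block). Neither gene's arrays overlapped. Bst2, the tether that holds budding virus at the cell, stood at 10.15 and 9.96 in Bmi1-labelled embryoid bodies, against 8.71 and 9.17 in vector embryoid bodies (difference 1.12, SE 0.20, adjusted p 0.16 by limma and 0.032 with the block). Gbp2, a guanylate-binding protein that attacks the vacuoles of pathogens, stood at 8.86 and 7.99 in Bmi1-labelled embryoid bodies, against 6.91 and 6.91 in vector embryoid bodies (difference 1.51, SE 0.29, adjusted p 0.19 by limma and 0.033 with the block). Bst2 and Gbp2 were also separated between the groups, by more in set 1 than in set 2. The other 6 effectors that passed with the block were Oasl2 (1.90), Gbp3 (1.82), Ifit1 (1.45), Lgals3bp (0.97), Igtp (0.88) and Mx2 (0.81).

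Values within a gene family ranged widely. Ifit1, which binds viral RNA ends, stood at 9.01 and 8.42 in Bmi1-labelled embryoid bodies, against 7.57 and 6.95 in vector embryoid bodies. Ifit2, of the same cluster on chromosome 19, stood at 8.70 and 8.30 in Bmi1-labelled embryoid bodies, against 8.69 and 8.01 in vector embryoid bodies, and overlapped. Ifit3, its neighbour, differed by 0.65 with an adjusted p of 0.14 with the block (limma). The difference between these genes was not tested. Of the adjacent pair Oasl2 and Oasl1, the first differed by 1.90 and the second by 0.27. The antiviral Irgm1 (0.54), Parp12 (0.70), Trim21 (0.47), Ifi27l2a (0.66), Herc6 (0.08) and the chemokine Cxcl10 (0.10) did not pass with the block, nor did Ifit2 (0.15). Among the dim effectors, Mx1 was higher by 1.10 and 0.70 within the sets and Sp100 by 0.51 and 0.36.

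Of the brakes, Usp18, which removes Isg15 from proteins and blocks the receptor, stood at 10.21 and 9.90 in Bmi1-labelled embryoid bodies, against 8.05 and 8.83 in vector embryoid bodies. The groups did not overlap, and the difference was 2.16 in set 1 and 1.07 in set 2. Over both sets it was 1.62 (SE 0.27), and the adjusted p was 0.12 by limma and 0.032 with the block. Oasl1, which in mice holds back the translation of Irf7, stood at 6.92 and 6.62 in Bmi1-labelled embryoid bodies, against 6.48 and 6.51 in vector embryoid bodies, and did not pass (adjusted p 0.28 with the block, limma). Adar, which edits double-stranded RNA so that it is not sensed, stood at 8.97 and 8.99 in Bmi1-labelled embryoid bodies, against 8.84 and 9.09 in vector embryoid bodies, and overlapped. Its other probe sets differed by 0.34 and 1.00, against 0.02 for the brightest. A further 28 probe sets of 19 members were not used for these values. Of these, 16 were above the array median on at least 2 arrays, and all 16 had the same sign of the embryoid body difference as the probe set used.

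By promoter letters, the median embryoid body difference was 1.12 over the 15 tested members with the interferon-stimulated response element and 0.70 over the 19 tested members with an entry but no match. Of the 24 members that passed with the block, 19 had a promoter entry and 10 held the letters. Among the tested members that did not pass, 15 had an entry and 5 held the letters. Oasl2, Isg20, Ifi35, Xaf1 and Samd9l passed with no match in this window, and Cxcl10 and Irgm1 held a match and did not pass. For the STAT dimer element the order was the other way, with a median of 0.68 over 12 tested members that held it and 1.02 over 22 that did not. These medians are a description and were not tested.

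Interferon genes outside the list of 49 were taken from a fixed list of 80, of which 57 were tested. Without the block, 0 of 57 passed in embryoid bodies in either direction by limma, while 10 were higher and 2 lower at an unadjusted p under 0.05 (3.61% and 3.45% of all genes). The 2 lower were near the share over all genes. With the block, 5 were higher and 1 was lower (1.35% and 0.739% of all genes), and the median difference over the 57 was 0.06. Among 25 other interferon-stimulated genes, 3 were higher with the block and 1 was lower, with a median of 0.09. Helz2, a nuclear helicase coactivator, stood at 8.71 and 9.16 in Bmi1-labelled embryoid bodies, against 7.12 and 7.91 in vector embryoid bodies (difference 1.42, adjusted p 0.024 with the block, limma). Ifitm2, which hinders viral entry, fell with the block: it stood at 10.43 and 10.61 in Bmi1-labelled embryoid bodies, against 11.24 and 11.50 in vector embryoid bodies (difference -0.85, adjusted p 0.28 without the block and 0.045 with it, limma). Both genes' arrays were separated, in opposite directions.

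Among 14 tested sensing genes of that list, 2 were higher with the block. Tlr3, the endosomal receptor of double-stranded RNA, stood at 6.57 and 6.33 in Bmi1-labelled embryoid bodies, against 5.25 and 5.10 in vector embryoid bodies (difference 1.28, adjusted p 0.048 with the block, limma). Ddx58, which encodes RIG-I, stood at 9.15 and 9.35 in Bmi1-labelled embryoid bodies, against 8.25 and 8.56 in vector embryoid bodies (difference 0.84, adjusted p 0.040 with the block, limma). Both sensors were separated between the groups, like Ifih1. None of 8 receptors and kinases and none of 9 further brakes passed with the block, including Ifnlr1 (0.73), Ifngr1 (-0.59), Ptpn2 (0.41) and Socs1 (-0.34).

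The interferons themselves were dim. Of 9 listed ligands 5 had a probe set and 1 was tested. At most 1 of the 5 was above the array median on any array. Ifnb1 stood at 4.97 and 4.38 in Bmi1-labelled embryoid bodies, against 4.91 and 4.39 in vector embryoid bodies. Ifna1, the 1 tested, stood at 6.83 and 5.77 in Bmi1-labelled embryoid bodies, against 6.71 and 5.73 in vector embryoid bodies. Both genes followed the sets and not the label. Ifna1 differed by 0.08 (SE 0.41, limma adjusted p 1, and 0.75 with the block). The other 4 ligands were too dim to test.

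Cell-type genes also differed in embryoid bodies. Leukocyte and macrophage genes (14 measured) had a median level of 7.52 and 7.46 in Bmi1-labelled embryoid bodies, against 8.86 and 6.80 in vector embryoid bodies. Over the 12 tested, the median difference was -1.09 in set 1 and 0.84 in set 2. Of the members, 38 of 41 were higher in both sets. Vector replicate 1 minus replicate 2 had a median of 2.22 for leukocyte, 0.09 for endothelial and -1.51 for trophoblast genes. It was -1.59 for epithelial genes, -2.14 for pluripotency genes and 0.08 for the members. Endothelial genes had a median level of 7.47 and 7.59 in Bmi1-labelled embryoid bodies, against 8.21 and 8.29 in vector embryoid bodies. All 9 tested were lower (7432 of all 12982 genes), 3 of them called with the block (0.739% of all genes). Their median difference was -0.80 in set 1 and -0.73 in set 2. Trophoblast genes had a median level of 9.17 and 9.26 in Bmi1-labelled embryoid bodies, against 7.10 and 8.12 in vector embryoid bodies. Of 9 tested, 8 were higher (5546 of all 12982 genes), 3 of them called with the block (1.35% of all genes). The median was 1.58 in set 1 and 0.85 in set 2. Epithelial genes had a median level of 8.69 and 9.10 in Bmi1-labelled embryoid bodies, against 7.81 and 9.53 in vector embryoid bodies. All 5 tested were higher in set 1 (median 1.04) and 3 in set 2 (median 0.37), and 0 of 5 passed limma with or without the block or at an unadjusted p under 0.05 without it. Pluripotency genes had a median level of 8.15 and 8.58 in Bmi1-labelled embryoid bodies, against 7.63 and 9.41 in vector embryoid bodies. The part of these cell-type differences in the interferon gene differences was not tested.

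In ES cells the question was the same before differentiation. Members showed no common shift: the median difference was 0.01 log2 units, from -0.73 to 1.80, against 0.00 over all genes. By limma 0 of 41 members passed in either direction (0.0462% of all genes higher, 0% lower), while at an unadjusted p under 0.05 there were 7 higher and 4 lower (4.98% and 1.32% of all genes). Arrays did not overlap for 12 members higher in Bmi1-labelled ES cells (25.1% of all genes) and 7 lower (20.6% of all genes). With the block, which draws the embryoid body sets out of the spread, 2 members were higher (1.39% of all genes) and 0 lower (0.270% of all genes). The block fit called 0 without Bmi1-labelled ES cell replicate 1 or either control ES cell array, 2 without Bmi1-labelled ES cell replicate 2, and 1 when each embryoid body array was left out.

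With all arrays those 2 were Gbp2 and Batf3, and with an embryoid body array left out the 1 was Gbp2. Without Bmi1-labelled ES cell replicate 2 they were Irgm1 and Parp12 instead (adjusted p 0.044 each with the block, limma), while Gbp2 (0.070) and Batf3 (0.083) did not pass. Gbp2 stood at 5.63 and 6.0 in Bmi1-labelled ES cells, against 3.93 and 4.10 in control ES cells (difference 1.80, SE 0.29, adjusted p 0.13 by limma and 0.029 with the block). Only the Bmi1-labelled arrays reached the array median there. Batf3 stood at 7.04 and 6.83 in Bmi1-labelled ES cells, against 6.17 and 6.25 in control ES cells (difference 0.72, SE 0.17, adjusted p 0.26 by limma and 0.046 with the block). Both genes were higher at both stages with the block. Bst2 stood at 9.52 and 9.47 in Bmi1-labelled ES cells, against 8.72 and 8.83 in control ES cells, and the 0.72 difference did not pass (adjusted p 0.41 by limma and 0.11 with the block).

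Several members had a wide gap in ES cells and did not pass with all arrays. Irf1 stood at 8.81 and 8.52 in Bmi1-labelled ES cells, against 8.05 and 8.06 in control ES cells (adjusted p 0.089 with the block, limma). Parp12 stood at 8.46 and 7.49 in Bmi1-labelled ES cells, against 6.96 and 6.70 in control ES cells (adjusted p 0.15 with the block, limma). Irgm1, a GTPase of resistance to intracellular pathogens, stood at 7.57 and 6.34 in Bmi1-labelled ES cells, against 6.0 and 5.46 in control ES cells (adjusted p 0.21 with the block, limma). In Parp12 and Irgm1 replicate 1 of the Bmi1-labelled group stood well above replicate 2.

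A few members pointed the other way in ES cells. Irf9 stood at 6.70 and 6.79 in Bmi1-labelled ES cells, against 7.31 and 7.38 in control ES cells (difference -0.60, adjusted p 0.53 by limma and 0.057 with the block). Xaf1 stood at 7.11 and 7.50 in Bmi1-labelled ES cells, against 7.68 and 8.40 in control ES cells (difference -0.73, adjusted p 0.24 with the block, limma). None of these arrays overlapped, though neither gene passed. Samd9l stood at 7.09 and 7.30 in Bmi1-labelled ES cells, against 7.66 and 7.87 in control ES cells (adjusted p 0.17 with the block, limma). Ifi35 stood at 4.77 and 4.49 in Bmi1-labelled ES cells, against 5.26 and 5.07 in control ES cells, below the array median throughout (adjusted p 0.13 with the block, limma). The other Ifi35 probe sets differed by -0.06 and -0.24 there, against -0.54 for the brightest. All 5 tested sensors had a difference below 0 in ES cells, from -0.32 to -0.06, and none of them passed.

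**Figure D4:**
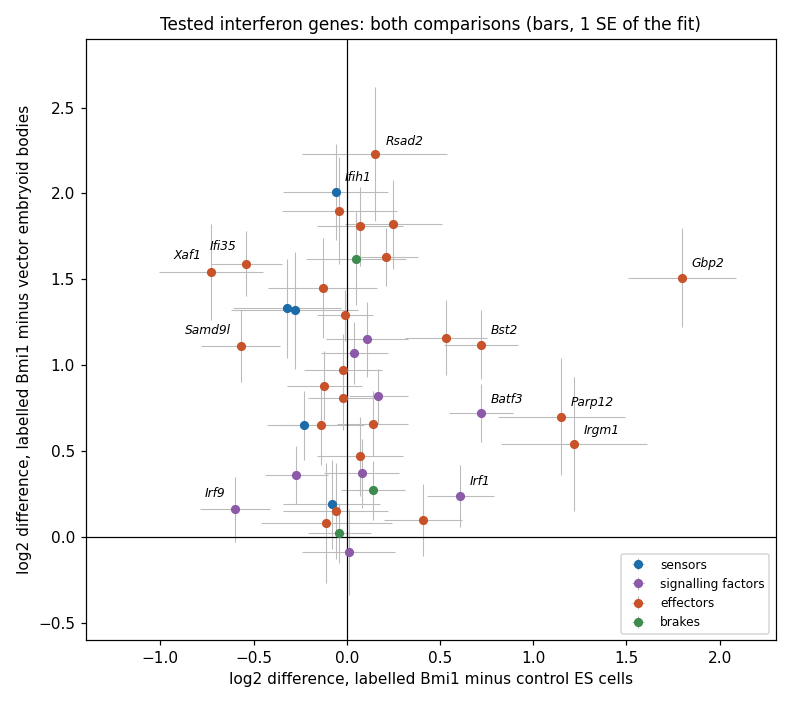
Log2 difference of each tested member in ES cells (labelled Bmi1 minus control, horizontal) and in embryoid bodies (labelled Bmi1 minus vector, vertical), with bars of 1 SE of the fit and colours by role. Most members lie high and close to 0 on the horizontal axis, Gbp2 lies far from 0 on both (1.80 and 1.51), and Xaf1, Ifi35 and Samd9l lie left of 0.

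Whether the difference itself depended on the stage was tested as the embryoid body difference minus the ES cell difference. The median over the 41 members was 0.79 log2 units, against -0.06 over all genes. By limma 0 members passed in either direction (0% of all genes both ways), while 24 were higher and 0 lower at an unadjusted p under 0.05 (2.03% and 4.81% of all genes). With the block 10 members passed, all with the larger difference in embryoid bodies (0.354% of all genes), and 0 passed in the other direction (0.470% of all genes). The block fit called 12 without replicate 2 of either embryoid body group, 3 without Bmi1-labelled ES cell replicate 2, and 0 when each remaining array was left out. The 10 were the sensors Ifih1 and Ddx60 and the effectors Oasl2, Isg20, Ifi35, Parp14, Ifit1, Rsad2, Xaf1 and Samd9l. Of these, Ifih1, Ddx60, Oasl2, Isg20, Ifi35 and Ifit1 were at or below the array median on all 4 ES cell arrays and passed the brightness filter through embryoid body arrays alone. Their ES cell differences rest on dim values, so for these 6 the test is little more than that of the embryoid body difference. The 2 members called in ES cells with the block did not pass this test, with differences of -0.29 for Gbp2 and 0.00 for Batf3. Irgm1 (-0.68), Parp12 (-0.44) and Irf1 (-0.37) had the most negative values and did not pass.

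Between stages, most members were higher in embryoid bodies than in ES cells, in Bmi1-labelled cells and in vector or control cells alike. In Bmi1-labelled cells, 36 of 41 members were higher in embryoid bodies (21.2% of all genes) and 2 lower (38.0% of all genes), with a median of 1.74 against -0.27 over all genes. In vector or control cells 29 were higher (22.7% of all genes) and 2 lower (35.8% of all genes), with a median of 1.70 against -0.24. Of the 41 tested members 15 had passed the brightness filter through embryoid body arrays alone, and their stage differences are given as a description. Over all 47 measured members without the filter, 37 were higher in Bmi1-labelled cells (19.6% of all genes) and 29 in vector or control cells (20.8% of all genes). Stages lie in different sets of arrays, so stage and set cannot be told apart.

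Usp18 and Rtp4 stood furthest apart. Usp18, at 10.21 and 9.90 in Bmi1-labelled embryoid bodies, stood at 3.54 and 3.37 in Bmi1-labelled ES cells (difference 6.60, SE 0.27). In vector embryoid bodies it stood at 8.05 and 8.83, against 3.46 and 3.36 in control ES cells (difference 5.03, SE 0.27). Rtp4 differed by 6.71 (SE 0.23) in Bmi1-labelled cells and by 4.98 (SE 0.23) in vector or control cells. Both genes were below the array median on all ES cell arrays and well above it on all embryoid body arrays.

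By role, in Bmi1-labelled cells, 23 of 24 effectors, 6 of 9 signalling factors, 4 of 5 sensors and all 3 brakes were higher in embryoid bodies. In vector or control cells these counts were 20 effectors, 2 signalling factors, 4 sensors and 3 brakes. Over all genes the shares were 21.2% in Bmi1-labelled cells and 22.7% in vector or control cells, and the 2 of 9 signalling factors were near that share. These counts include the 15 members that passed the filter through embryoid body arrays alone. Trim25 was lower in embryoid bodies: it stood at 10.16 and 10.44 in Bmi1-labelled embryoid bodies, against 11.05 and 11.22 in Bmi1-labelled ES cells, and at 9.94 and 9.93 in vector embryoid bodies, against 11.37 and 11.43 in control ES cells. Xaf1 was lower in vector embryoid bodies than in control ES cells by -1.14 (SE 0.28, limma adjusted p 0.010), yet higher in Bmi1-labelled embryoid bodies than in Bmi1-labelled ES cells by 1.13 (SE 0.28, limma adjusted p 0.011). Stat2 differed by 1.44 (limma adjusted p 0.00072) in Bmi1-labelled cells and by 0.41 (limma adjusted p 0.086) in vector or control cells.

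**Figure D5:**
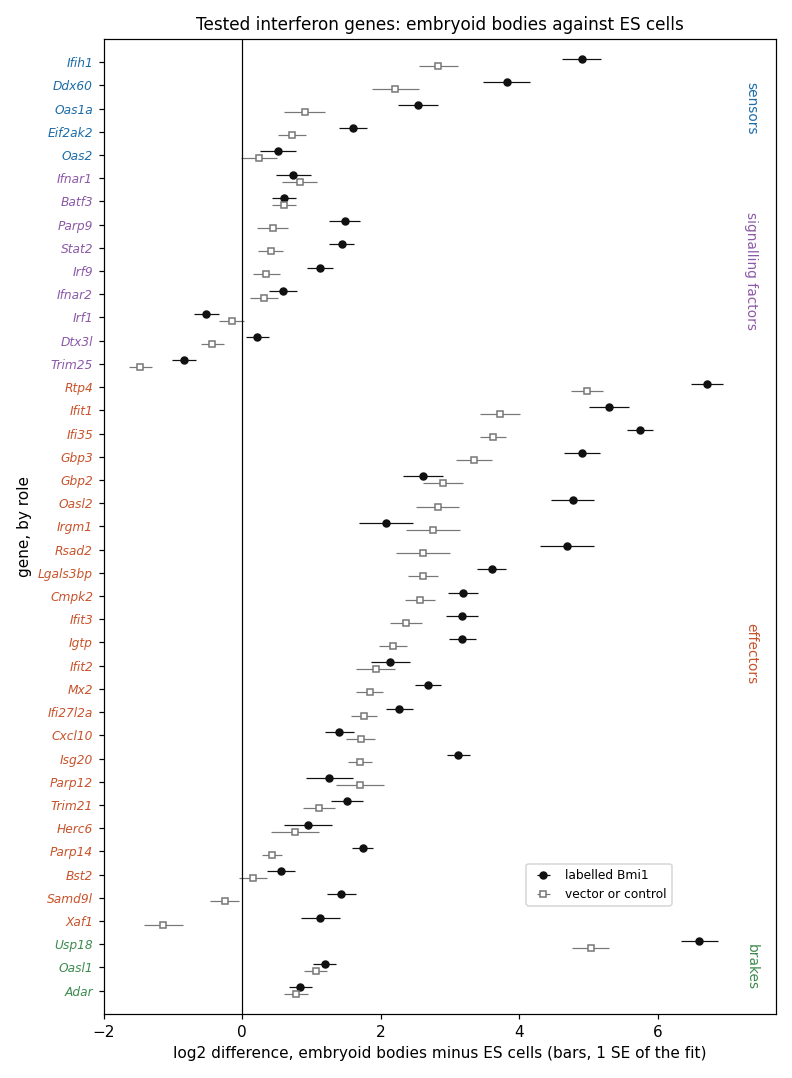
Log2 difference of each tested member between embryoid bodies and ES cells, in Bmi1-labelled cells (filled circles) and in vector or control cells (open squares), with bars of 1 SE of the fit, by role. Usp18 and Rtp4 lie furthest right, Trim25 lies left of 0 in both, and Xaf1 lies on opposite sides.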

How the data were processed

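Per the submitters' processing notes, the authors summarised the Affymetrix arrays with RMA (version not given in the sources used), and the deposited log2 values were used as they stand. Of the probe sets, 64 controls were set aside. The brightest probe set with 1 symbol stood for each gene, and 12982 genes above the array median on at least 2 arrays were tested (limma 3.58.1 in R 4.3.3, 4 groups of 2 arrays, 4 residual degrees of freedom, Benjamini-Hochberg adjustment over all genes tested, threshold 0.05). The number of arrays limits precision.

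The members and lists were chosen with earlier results of these data known. All measured members are named, and non-members only where they passed a fit or belong to the ligand, receptor or brake lists. Deviations from group means correlated at 0.721 between the replicate 1 embryoid body arrays, and at 0.027 and 0.038 between those and replicate 1 of the labelled Bmi1 ES cells. Only embryoid body numbers thus went together, as did the distribution sets, and that set was the block (3 residual degrees of freedom). Promoters came from RefSeq, build GRCm38.p6. Alternatives covered the filter, probe set choice, normalization, prior, arrays in the fit, blocks and each array left out. The fit was tested on simulated data.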

Additional observations from a re-analysis of the deposited data

Results flagged for a closer look

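For 10 members the difference between Bmi1-labelled cells and their controls was itself different between embryoid bodies and ES cells, by limma with the set of embryoid body arrays as a block. The embryoid body difference exceeded the ES cell difference by 2.28 log2 units for Xaf1, 2.13 for Ifi35, 2.08 for Rsad2 and 2.07 for Ifih1. It exceeded it by 1.94 for Oasl2, 1.68 for Samd9l, 1.60 for Ddx60 and 1.58 for Ifit1. For Isg20 the excess was 1.42, and for Parp14 it was 1.30. These values are of the brightest probe set of each gene. The other Ifi35 probe sets differed by 0.94 and 0.98 in embryoid bodies and by -0.06 and -0.24 in ES cells. The other Rsad2 probe sets differed by 1.47 and 1.90 in embryoid bodies and by -0.11 and -0.04 in ES cells. The other Xaf1 probe set, above the array median on no array, differed by 0.14 in embryoid bodies and -0.38 in ES cells. Of these 10, Ifih1, Ddx60, Oasl2, Isg20, Ifi35 and Ifit1 were at or below the array median on all ES cell arrays and passed the brightness filter through embryoid body arrays alone, so for them the value mostly restates the embryoid body difference. Xaf1 lay closest to the threshold, with an adjusted p of 0.04983. Without the block 0 of the 10 passed by limma.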

How the results depend on the processing

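The count of members called in embryoid bodies (3) depended on the model. It was 24 with the embryoid body set as a replicate block, 25 with quantile normalization added to that block and 24 with the block and no filter. Averaging probe sets gave 2, with Ifi35 and Parp14 lost and Rsad2 gained. It was 1 with no filter and 0 with the 75th percentile filter, every probe set on its own, quantile normalization, median centring, an intensity trend with a robust prior, the replicate block over the 6 numbered arrays, or embryoid body arrays alone, with their block (0) or without. In ES cells the count (0) was 2 with the block, 2 with the block and no filter, and 1 with ES cell arrays alone. For the difference between stages (0) it was 10 with the block, 7 with quantile normalization and the block, and 9 with no filter and the block. Alternatives with the block combined were chosen after seeing the data. The causes were not tested.

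The embryoid body median (0.88) was 1.04 with the 75th percentile filter and 1.07 with quantile normalization, with or without the block (1.07). With 1 array left out, a lone array is assumed to vary like the other groups. If that is an embryoid body array, the block fit gives the difference within the other set alone. The spread among arrays then comes from the ES cell arrays alone. Shares over all genes are not given for these fits, so their counts do not compare members with other genes. The embryoid body count then ran from 0 to 12, and from 0 to 16 with the block, where it was 0 without replicate 1 of either embryoid body group, 16 without replicate 2 of either, 14 without either Bmi1-labelled ES cell array and 10 without either control ES cell array. The ES cell count stayed at 0, and ran from 0 to 2 with the block. The count for the difference between stages ran from 0 to 6, and from 0 to 12 with the block. The stage counts ran from 32 to 40 in Bmi1-labelled cells (34 to 40 with the block) and from 25 to 31 in vector or control cells (29 to 36 with the block). The medians ran from 0.83 to 1.04 in embryoid bodies (0.79 to 0.94 with the block) and from -0.04 to 0.05 in ES cells.

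Signs turned only for members that passed no fit in that comparison. In ES cells Stat2 was -0.14 as the mean of probe sets, and Parp14 was 0.00 after median centring. With 1 array left out, embryoid body values ran from -0.16 to 0.54 for Oas2, -0.45 to 0.27 for Ifnar1 (0.22 with the block and either replicate 1 left out), -0.02 to 0.35 for Irf9, -0.19 to 0.49 for Ifit2, -0.17 to 0.37 for Cxcl10 (-0.26 to 0.46 with the block), -0.35 to 0.51 for Herc6, and -0.11 to 0.14 for Adar. ES cell values ran from -0.15 to 0.04 for Ifih1, -0.08 to 0.31 for Parp9, -0.03 to 0.01 for Parp14, -0.10 to 0.24 for Rtp4 (-0.09 with the block and without Bmi1-labelled replicate 1), -0.04 to 0.13 for Usp18 (-0.01 with the block and without the empty vector ES cell array), and -0.11 to 0.03 for Adar.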
